A study of Homo sapiens with 27 samples.

Results

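Translational efficiency, the number of ribosome footprints a gene gives per unit of its mRNA, was compared between LPS-treated and vehicle-treated THP-1 cells. The change was measured as the footprint change minus the mRNA change of each gene. All genes counted well enough in both assays entered, which were 11944 of the 20453 genes in the count tables. Ribosome profiling sequences the short mRNA pieces that ribosomes shield from nuclease, and RNA-seq measures the mRNA itself.

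THP-1 is an established human monocytic leukaemia line. All cells were first differentiated toward macrophages by 24 h in the phorbol ester PMA at 10 ng/ml, then moved to fresh medium. The LPS group received 100 ng/ml of lipopolysaccharide for 3 h, with 5 footprint and 4 RNA libraries, and the vehicle group received the ethanol and PBS carrier for 3 h, with the same numbers of libraries. These 18 libraries were compared. A further 9 libraries, from cells given LPS with 1 µM dexamethasone for 3 h, only helped to estimate each gene's spread. The labels do not say that the numbered replicates were separate cultures, so p-values measure the spread between these libraries, which may be technical. The cells are 1 line at 1 time point, and no protein was measured.

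As background, LPS binds Toll-like receptor 4 and switches on NF-kB and interferon regulatory factors within minutes to hours. Most of the response is transcriptional, but macrophages also alter how often particular mRNAs are translated. The best known class of translationally controlled mRNAs carries a 5′ terminal oligopyrimidine (TOP) tract, a C at the first base followed by further pyrimidines. TOP mRNAs encode the ribosomal proteins and elongation factors, and the mTOR pathway sets their translation through the repressor LARP1. Interferon-stimulated genes encode antiviral proteins that are induced through transcription factors that include STAT2 and IRF9.

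The starts of TOP mRNAs are shown because this class is known for translational control and is described below. Each line gives 5 bases before and 20 bases from the annotated transcription start (RefSeq, GRCh38.p14, transcribed strand), with capitals marking a start C followed by at least 4 pyrimidines. The first 4 genes are TOP list members whose efficiency rose in the test and the next 4 are well-known members that missed it. HELZ2 and STAT2, which fell, are shown for contrast.
RPSA: cctgtCTTTTCCgtgctacctgcag
RPS7: tcctcctcgcgctgtttccgcctct
EEF1B2: gccccagcctcgaggccgggcgtct
EEF1G: ggcttactttgcggcagcgccgaga
EEF1A1: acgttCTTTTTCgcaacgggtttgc
EEF2: gcgttCTCTTCCgccgtcgtcgccg
RPLP0: gaggcCCTTCTCTCgccaggcgtcc
RPS3: cacttCCTTTCCTTTCagcggagcg
HELZ2: gggccagaatcgaaactgagagctc
STAT2: acgggaagtcgcgaccagagccatt
These windows lie at chr3:39406715-39406739 (plus strand, RPSA), chr2:3575255-3575279 (plus, RPS7), chr2:206159604-206159628 (plus, EEF1B2), chr11:62573872-62573896 (minus, EEF1G), chr6:73521013-73521037 (minus, EEF1A1), chr19:3985444-3985468 (minus, EEF2), chr12:120201092-120201116 (minus, RPLP0), chr11:75399513-75399537 (plus, RPS3), chr20:63574220-63574244 (minus, HELZ2) and chr12:56360088-56360112 (minus, STAT2). The tract stood at the annotated start of 5 of the 8 TOP genes shown and of neither interferon-stimulated gene. A gene may start at other bases than the annotated one in these cells, so the windows describe the annotation.

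Library totals were 20.8 to 26.1 M counts for LPS footprints, 15.4 to 24.3 M for vehicle footprints, 20.9 to 24.9 M for LPS RNA and 21.8 to 30.7 M for vehicle RNA. The footprint library numbered 4 stood apart from its group under every treatment, with a median correlation to its own group of 0.962 with LPS and 0.965 with vehicle, against at least 0.989 for the other footprint libraries of those groups. In the vehicle library numbered 4 the interferon response genes lay 1.49 log2 units above the group mean, which includes that library. The other vehicle footprint libraries lay between -0.43 and -0.28, and the LPS library numbered 4 lay at -0.48 from its own group mean. Results below are therefore also given without the 3 footprint libraries numbered 4. All 15 monocyte and macrophage markers averaged at least 5 CPM (counts per 1 M counts, scaled between libraries) in footprints of both groups, and 13 of 15 did in RNA. Their summed level was 7322 to 19364 CPM in LPS footprints and 8468 to 18797 CPM in vehicle footprints, with the libraries numbered 4 highest in both, and 3823 to 4168 CPM in LPS RNA and 5001 to 5386 CPM in vehicle RNA. Of 25 markers of other cell types, 19 in LPS footprints, 20 in vehicle footprints and 21 in RNA of each group averaged under 1 CPM, and nearly all of their summed level (601 to 1459 CPM in LPS footprints, 969 to 1700 CPM in vehicle footprints, 157 to 190.4 CPM in LPS RNA and 276 to 397 CPM in vehicle RNA) was PECAM1 and ELANE, which myeloid cells also make. The part of these differences in the results was not tested.

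Efficiency was higher with LPS for 126 genes (1.05% of the 11944 tested) and lower for 82 (0.687%), by the edgeR quasi-likelihood test of the assay-by-treatment interaction at a Benjamini-Hochberg adjusted p under 0.05. Of these, 70 rose and 33 fell at least 2-fold. At an unadjusted p under 0.05 the test found 1360 genes in either direction, and the DESeq2 Wald test called 201 higher and 203 lower after adjustment. Without the footprint libraries numbered 4 the test called 401 genes higher (3.35% of 11978) and 254 lower (2.12%), and 204 of the 208 genes kept their call and sign. With replicate number as a block within each assay it called 490 higher and 407 lower, and all 208 kept their call and sign. The median standard error (SE) of a gene's efficiency change was 0.23 log2 units, and 0.17 without the libraries numbered 4.

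Called changes in mRNA were far more common, although the efficiency change carries the error of both assays and its test is less precise. In RNA-seq 28.6% of 13327 genes were higher and 33.6% lower with LPS, and in footprints 25.4% of 12197 were higher and 27.2% lower. Efficiency changes were also narrower. The quartiles over all genes were -0.16 and 0.20 on the log2 scale, around a median of 0.02, beside -0.50 and 0.37 for mRNA changes. The outer 5% on each side began at -0.52 and 0.64 for efficiency and at -1.54 and 1.72 for mRNA. Library scaling sets the average gene near 0 in both assays, so a change of translation common to all genes could not be seen.

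**Figure D1:**
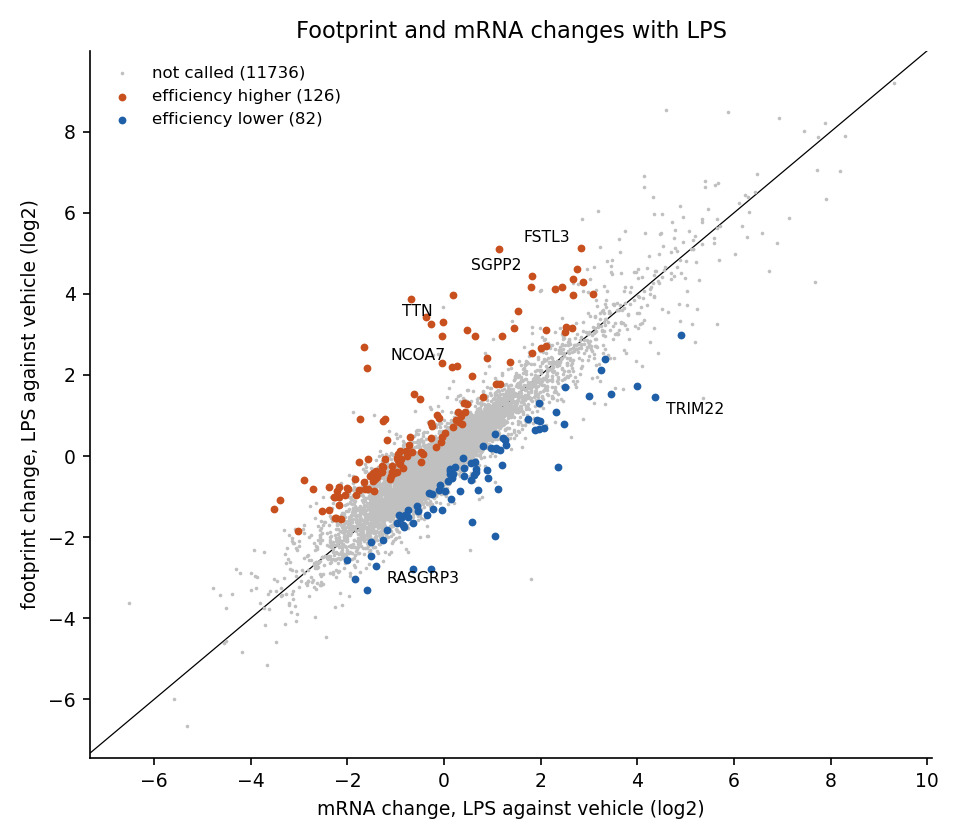
Footprint change against mRNA change of the 11944 genes, LPS against vehicle, both as log2 fold changes, with the line of equal change. Genes with called efficiency changes (126 higher in orange, 82 lower in blue) lie off the line, while most genes follow it.

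The called genes divided by what their mRNA did. Among the 126 genes with higher efficiency, 72 had lower mRNA with LPS, 36 had higher mRNA and 18 had no called mRNA change. Among the 82 with lower efficiency, 45 had higher mRNA, 23 lower and 14 no called change. These counts stand beside 28.6% of all genes tested in RNA-seq called higher and 33.6% called lower. So 117 genes were buffered, meaning that efficiency moved against the mRNA, 59 were intensified, meaning that both moved the same way and footprints moved further, and 32 were exclusive, meaning that footprints changed with no called mRNA change. Another 5153 genes were forwarded, with mRNA and footprints called in the same direction and no called efficiency change. Without the footprint libraries numbered 4 there were 374 buffered, 196 intensified, 84 exclusive and 5956 forwarded genes, and with the block 503, 264, 129 and 6051. The mRNA value enters the efficiency change with a minus sign, so its error alone moves both apart and adds to buffering. Genes with higher efficiency had few footprints, with a median mean level of 10.1 CPM, beside 20.5 CPM for all genes tested. For genes with lower efficiency it was 18.4 CPM. The median mRNA levels were 23.0 CPM for higher and 51.6 CPM for lower efficiency, beside 22.9 CPM for all genes tested. Of the 208 genes, 139 averaged at least 5 CPM in both assays, as 8562 of all genes tested did. The 20 genes described next were the 10 largest rises and 10 largest falls within those 139.

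The largest rise was that of TTN (ENSG00000155657, chromosome 2, 178525989 to 178807423), the gene of titin, the giant protein of muscle sarcomeres. Its footprint level was 211, 117, 27.1, 94.3 and 54.5 CPM in the LPS libraries, against 9.34, 18.4, 8.50, 8.06 and 6.67 CPM in the vehicle libraries. Its mRNA stayed at 93.7, 95.5, 94.4 and 103 CPM with LPS, against 88.0, 121, 94.7 and 101 CPM with vehicle. All LPS footprint values exceeded all vehicle values, although they differed widely among themselves, and the mRNA groups overlapped. Efficiency rose by 3.37 ± 0.55 on the log2 scale (SE), a ratio of 10.3 (edgeR adjusted p = 0.00089).

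NCOA7, a TLDc-domain protein first described as a nuclear receptor coactivator (ENSG00000111912, chromosome 6, 125781115 to 125932034), behaved likewise with tighter replicates. It gave 288, 285, 280, 181 and 222 CPM of footprints with LPS, against 45.2, 52.9, 51.9, 67.5 and 51.0 CPM with vehicle. In RNA it gave 60.1, 42.6, 67.8 and 58.6 CPM with LPS, against 36.7, 41.3, 59.3 and 58.7 CPM with vehicle. The footprint groups were far apart and the mRNA groups overlapped. The efficiency change was 2.00 ± 0.23 (edgeR adjusted p = 1.89e-05), or 4.01-fold.

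Among the 10 largest rises, 5 more belonged to genes whose mRNA also rose. SGPP2, which dephosphorylates sphingosine-1-phosphate (ENSG00000163082, chromosome 2, 222423988 to 222562621), had 11.6, 12.6, 14.1, 21.1 and 10.9 CPM of footprints with LPS, against 0.673, 0.657, 0.613, 0.814 and 0.519 CPM with vehicle. Its mRNA level was 14.8, 16.4, 16.1 and 15.8 CPM with LPS, against 4.57, 6.42, 3.39 and 4.00 CPM with vehicle. Both assays separated the groups, and the footprint change (4.44 ± 0.25) was larger than the mRNA change (1.83 ± 0.15). The efficiency rise was 2.66 ± 0.30 (edgeR adjusted p = 1.27e-05).

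FSTL3, a secreted antagonist of activin (ENSG00000070404, chromosome 19, 676392 to 683385), had 43.7, 38.2, 33.1, 126 and 85.8 CPM of footprints with LPS, against 1.47, 2.35, 1.66, 2.61 and 1.37 CPM with vehicle. In RNA-seq it gave 14.6, 17.5, 18.5 and 37.0 CPM with LPS, against 3.40, 3.07, 2.73 and 3.50 CPM with vehicle. Both groups were separate in both assays, with LPS libraries numbered 4 highest in each, and efficiency rose by 2.35 ± 0.50 (edgeR adjusted p = 0.012).

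The other 3 of these genes showed the same order. BAIAP2L1, an organiser of actin at the membrane (chromosome 7, 98291650 to 98401090), averaged 13.4 ± 2.03 CPM of footprints with LPS and 0.585 ± 0.317 CPM with vehicle (SD, n = 5 each), and its efficiency rose by 1.91 ± 0.26. TIAM2, an exchange factor that activates the GTPase Rac (chromosome 6, 154995315 to 155257723), averaged 27.3 ± 8.48 CPM with LPS and 1.62 ± 0.512 CPM with vehicle, and its efficiency rose by 1.87 ± 0.32. GP1BA, best known as the platelet receptor for von Willebrand factor (chromosome 17, 4932277 to 4935023), averaged 19.1 ± 2.79 CPM with LPS and 0.915 ± 0.124 CPM with vehicle, and its efficiency rose by 1.72 ± 0.37. The mRNA changes of the 3 genes were 2.75 ± 0.10, 2.29 ± 0.09 and 2.67 ± 0.15, in the order given. In all 3 the footprints therefore rose further than a strong rise in mRNA.

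The remaining 3 of the 10 largest rises were buffered falls of mRNA. PLCB2, a phospholipase C that acts below G protein-coupled receptors (ENSG00000137841, chromosome 15, 40284256 to 40307935), had 107, 117, 104 and 112 CPM of mRNA with LPS, against 387, 416, 314 and 418 CPM with vehicle. Its footprint level was 92.3, 93.8, 85.6, 172 and 85.0 CPM with LPS, against 101, 88.9, 99.8, 194 and 105 CPM with vehicle. The mRNA groups were far apart, while the footprint groups overlapped and differed by -0.15 ± 0.26. The efficiency rise of 1.65 ± 0.30 (edgeR adjusted p = 0.0028) thus came with lower mRNA counts and footprint counts that moved far less (-0.17 without the libraries numbered 4).

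STAB1, the scavenger receptor stabilin-1 (chromosome 3, 52495338 to 52524495), showed the same form at lower footprint counts. It had 21.7, 28.0, 21.3 and 29.4 CPM of mRNA with LPS, against 68.9, 73.8, 48.8 and 43.9 CPM with vehicle, while footprints averaged 10.2 ± 1.88 CPM with LPS and 7.72 ± 1.04 CPM with vehicle (SD, n = 5 each). Efficiency rose by 1.62 ± 0.25. TREML1, a receptor-like protein of the TREM family (chromosome 6, 41149260 to 41155403), fell in both assays, by 2.21 on the log2 scale in mRNA and by 0.86 in footprints, so that its efficiency rose by 1.38 ± 0.23 (edgeR adjusted p = 0.0013).

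**Figure D2:**
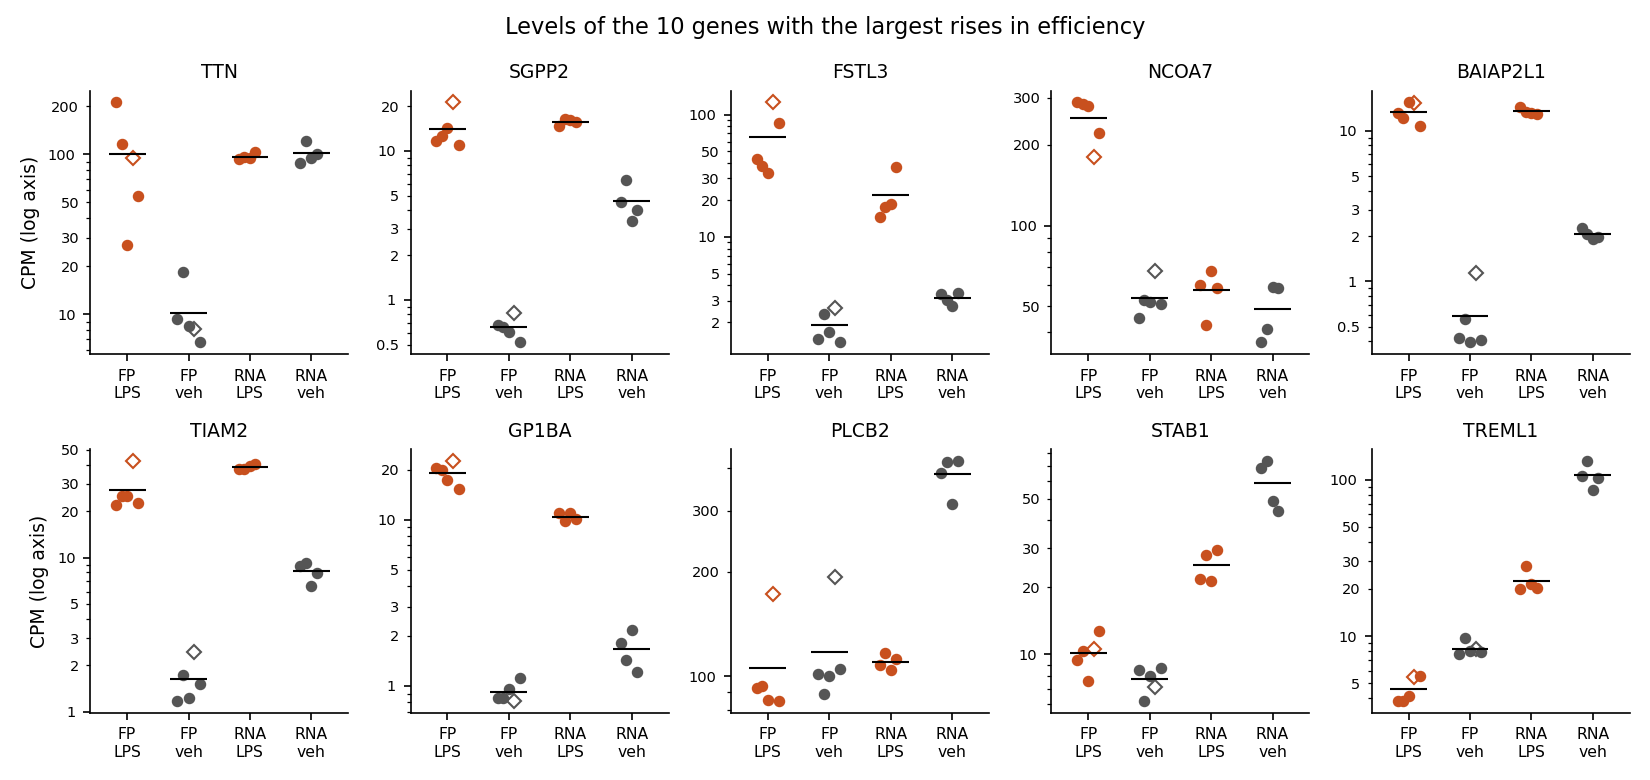
CPM in each library, on a log axis, of the 10 genes with the largest rises in efficiency, in footprints (FP) and RNA, LPS in orange and vehicle in grey, with bars at the group means. Open diamonds are the footprint libraries numbered 4. The footprint groups are apart in the top row and for TIAM2, GP1BA and TREML1. The mRNA groups are apart for all genes shown except TTN and NCOA7.

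The largest fall was that of TRIM22, an interferon-induced antiviral ubiquitin ligase (ENSG00000132274, chromosome 11, 5689790 to 5710863). The mRNA level was 94.5, 89.9, 73.8 and 78.1 CPM with LPS, against 3.57, 3.56, 4.38 and 4.95 CPM with vehicle. Its footprint level was 25.6, 18.2, 19.3, 30.1 and 18.2 CPM with LPS, against 3.45, 3.38, 4.29, 27.2 and 3.82 CPM with vehicle. The vehicle library numbered 4 lay within the LPS range and the other 4 vehicle libraries far below it. Efficiency fell by 2.87 ± 0.64 (edgeR adjusted p = 0.016), and by 1.88 ± 0.20 without the libraries numbered 4 (adjusted p = 1.37e-06).

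Another 5 of the 10 largest falls were genes of the interferon response list. SAMD9L, an interferon-induced restrictor of growth and virus replication (ENSG00000177409, chromosome 7, 93130056 to 93148385), had 484, 496, 455 and 466 CPM of mRNA with LPS, against 40.6, 47.3, 44.3 and 45.3 CPM with vehicle. Its footprint level was 76.0, 73.3, 78.4, 75.7 and 57.4 CPM with LPS, against 13.9, 15.4, 15.0, 64.6 and 16.8 CPM with vehicle, again with vehicle library 4 near the LPS values. Its efficiency change of -1.88 ± 0.43 became -1.18 ± 0.14 without the libraries numbered 4.

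HELZ2, an interferon-induced helicase (ENSG00000130589, chromosome 20, 63558086 to 63574239), had 996, 1051, 913 and 832 CPM of mRNA with LPS, against 179.5, 177, 188 and 153 CPM with vehicle. Its footprints gave 266, 227, 189.8, 307 and 198 CPM with LPS, against 119.8, 106, 106, 264 and 94.1 CPM with vehicle. Both assays rose, mRNA by 2.48 ± 0.10 and footprints by 1.03 ± 0.09 without the libraries numbered 4. The efficiency change was -1.37 ± 0.15 without those libraries and -1.66 ± 0.38 in all libraries.

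STAT2, the transcription factor that carries type I interferon signals (ENSG00000170581, chromosome 12, 56341597 to 56360107), had 547, 553, 443 and 521 CPM of mRNA with LPS, against 128, 150.3, 126 and 139 CPM with vehicle. Footprints of STAT2 were at 146, 131, 123, 171 and 104 CPM with LPS, against 75.5, 67.9, 70.4, 141 and 69.6 CPM with vehicle. Without the libraries numbered 4 the footprint groups did not overlap, and the efficiency change was -1.07 ± 0.15, beside -1.25 ± 0.28 in all libraries. IRF7, the factor that amplifies interferon production (chromosome 11, 612555 to 615950), and TRIM25, the ligase that activates the RNA sensor RIG-I (chromosome 17, 56887909 to 56914049), fell by 1.33 ± 0.35 and 1.09 ± 0.28 in all libraries. Without the libraries numbered 4 these values were -1.11 ± 0.21 and -0.79 ± 0.23. Both lie at the threshold (edgeR adjusted p = 0.0499 for IRF7 and 0.048 for TRIM25), and both lost the call when any 1 of 15 libraries (IRF7) or 13 libraries (TRIM25) was left out.

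The other 4 of the 10 largest falls were not on that list. CDCA4, a regulator of cell proliferation (ENSG00000170779, chromosome 14, 105009573 to 105021083), had more mRNA and fewer footprints. Its mRNA level was 36.9, 41.1, 33.2 and 39.9 CPM with LPS, against 22.5, 21.2, 21.1 and 17.1 CPM with vehicle, while footprints were at 19.8, 21.1, 19.3, 14.4 and 17.9 CPM with LPS, against 31.4, 28.5, 26.2, 25.1 and 23.7 CPM with vehicle. The groups did not overlap in either assay and moved in opposite directions, with an efficiency change of -1.43 ± 0.17 (edgeR adjusted p = 2.33e-05).

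RASGRP3, an activator of the GTPases Ras and Rap (ENSG00000152689, chromosome 2, 33436348 to 33564731), lost mRNA and lost footprints further. It had 2.96, 2.4, 3.06, 3.96 and 3.38 CPM of footprints with LPS, against 18.7, 22.2, 20.7, 20.4 and 21.9 CPM with vehicle, and its mRNA averaged 16.8 ± 2.42 CPM with LPS and 45.7 ± 6.19 CPM with vehicle (SD, n = 4 each). The efficiency change was -1.28 ± 0.22. PRDM8, a transcriptional repressor of the PRDM family (chromosome 4, 80185270 to 80204329), rose by 2.31 ± 0.14 in mRNA and by 1.09 ± 0.16 in footprints, with an efficiency change of -1.17 ± 0.22. TRIM14, an adaptor in antiviral signalling through MAVS (chromosome 9, 98035797 to 98119222), had an efficiency change of -1.10 ± 0.26, with overlapping mRNA groups and footprints at 8.74 to 16.1 CPM with LPS, against 15.6 to 21.2 CPM with vehicle. Its call was lost when any 1 of 4 libraries was left out.

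**Figure D3:**
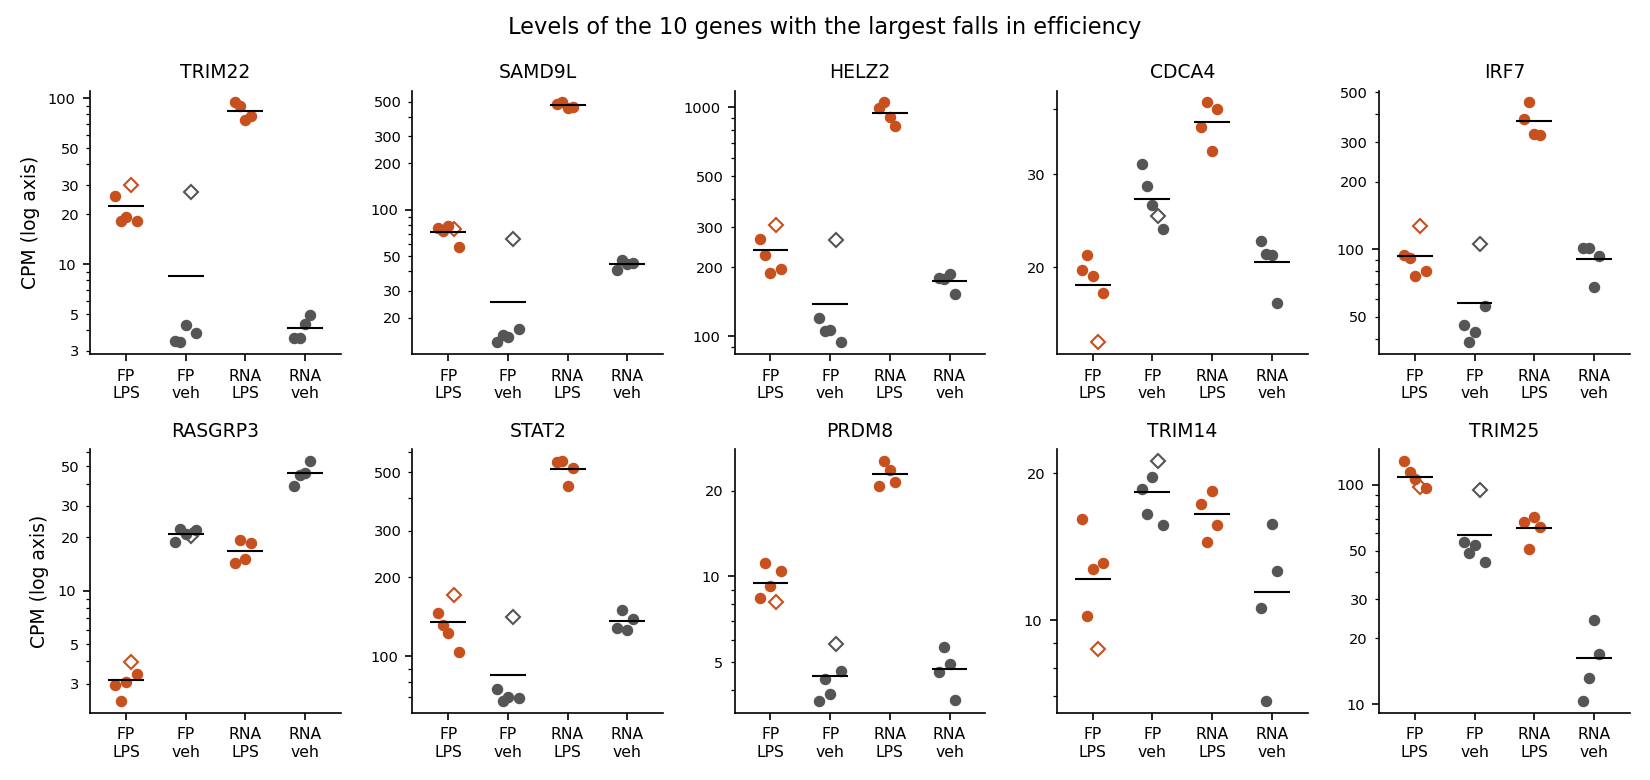
CPM in each library, on a log axis, of the 10 genes with the largest falls in efficiency, drawn as in the plot of the largest rises. The vehicle footprint library numbered 4 (open grey diamond) lies far above the other vehicle footprints for TRIM22, SAMD9L, HELZ2, IRF7, STAT2 and TRIM25, and not for CDCA4 or RASGRP3.

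Exclusive changes ran both ways, with 18 genes higher and 14 lower. Besides TTN and NCOA7, ZNF335, a zinc finger transcription regulator, had 54.1, 49.8, 46.9, 60.3 and 53.5 CPM of footprints with LPS, against 33.3, 32.8, 33.1, 43.5 and 35.6 CPM with vehicle, at a nearly equal mRNA level (129 ± 3.99 CPM with LPS and 129.6 ± 15.0 CPM with vehicle, SD, n = 4 each). Its efficiency rose by 0.58 ± 0.12. CARHSP1, an RNA-binding protein, fell to 7.02, 6.61, 4.33, 6.42 and 7.54 CPM of footprints with LPS, against 16.2, 15.5, 18.3, 13.4 and 15.5 CPM with vehicle. Its mRNA values overlapped (10.8 to 14.5 CPM with LPS, against 11.6 to 17.4 CPM with vehicle), and its efficiency change was -1.04 ± 0.21 (edgeR adjusted p = 0.0076). KLHL36, a kelch-like protein, and TRIM41, a ubiquitin ligase, fell in the same way, by 0.83 ± 0.16 and 0.67 ± 0.16, although TRIM41 lost its call when any 1 of 7 libraries was left out.

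Intensified falls included CCM2 and PFKFB4 besides RASGRP3. PFKFB4, an isoenzyme that sets the level of the glycolytic activator fructose-2,6-bisphosphate, had 21.1, 19.5, 17.1, 24.3 and 17.2 CPM of footprints with LPS, against 108, 97.0, 102, 138 and 104 CPM with vehicle. In RNA-seq it gave 34.0, 37.5, 29.6 and 33.2 CPM with LPS, against 101, 92.2, 92.6 and 107 CPM with vehicle. Footprints thus fell by 2.47 and mRNA by 1.51 on the log2 scale, and efficiency by 0.92 ± 0.18 (edgeR adjusted p = 0.0066). Its relative PFKFB3, the inducible isoenzyme, moved the opposite way. PFKFB3 had 170.0, 169.6, 153, 143 and 151 CPM of footprints with LPS, against 54.2, 48.8, 48.5, 35.5 and 40.9 CPM with vehicle, and its efficiency rose by 0.67 ± 0.16. PFKFB3 lost its call when either vehicle RNA library 3 or LPS RNA library 4 was left out. In all libraries it was the only called gene of 29 tested in the list of glycolysis and the pentose phosphate pathway. PFKFB4 was not assigned to this list. Over all genes 1.05% were called higher and 0.687% lower. Without the footprint libraries numbered 4 the list held 2 higher and 1 lower, beside 401 and 254 of all genes. With the replicate block it held 3 and 1, beside 490 and 407 of all genes. CCM2, a scaffold protein of endothelial junction signalling, had an efficiency change of -1.06 ± 0.26 and lost its call when any 1 of 9 libraries was left out.

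Most TOP mRNAs had small positive efficiency changes, and few passed the test. Of 72 ribosomal protein genes tested, 63 had a positive efficiency change, with a median of 0.32 against 0.02 for all genes. Only 2 of them, RPSA and RPS7, passed the test, 2 of 72 beside the 1.05% of all genes called higher, and none was called lower. Without the footprint libraries numbered 4 the median was 0.37 and 9 were called higher, beside 3.35% of all genes. At an unadjusted p under 0.05, 27 were higher and 0 lower, beside 1360 of all 11944 genes in either direction. DESeq2 called 7 higher and 0 lower, beside 201 and 203 of all genes. With the replicate block 21 were called higher, beside 490 of all genes, and with the 18 LPS and vehicle libraries only, none was. Leaving out single libraries gave medians from 0.20 without vehicle RNA library 2 (0 called higher) to 0.43 without vehicle RNA library 3 (8 called higher). In RNA-seq alone 37 of 78 ribosomal protein genes were called higher and 0 lower, beside 28.6% and 33.6% of all genes. In footprints alone 63 of 72 were called higher and 0 lower, beside 25.4% and 27.2% of all genes. The 15 monocyte and macrophage markers had a median efficiency change of 0.33, also above that of all genes, with 14 of 15 positive. None of these markers was called in all libraries. Without the libraries numbered 4, 3 were called higher, beside 3.35% of all genes, and with the block 5 were, beside 490 of all genes. In RNA-seq 10 of 15 were lower and 0 higher, beside 33.6% and 28.6% of all genes. The part of the marker changes in the ribosomal protein values was not tested. RPSA, a protein of the small subunit whose start is shown above, averaged 65.1 ± 9.20 CPM of footprints with LPS and 36.3 ± 3.81 CPM with vehicle (SD, n = 5 each), and 51.9 ± 4.35 CPM of mRNA with LPS and 42.8 ± 4.57 CPM with vehicle (n = 4 each).

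RPS7, also of the small subunit (chromosome 2, 3575260 to 3580920), had 54.4, 54.6, 63.6, 58.9 and 57.1 CPM of footprints with LPS, against 30.4, 34.2, 27.3, 23.3 and 30.0 CPM with vehicle. The mRNA level was 33.9, 34.6, 29.9 and 29.5 CPM with LPS, against 28.3, 31.2, 19.4 and 24.7 CPM with vehicle. Its footprint groups were separate and its mRNA groups overlapped. The efficiency rise of 0.68 ± 0.18 (edgeR adjusted p = 0.048) lost its call when any 1 of 15 libraries was left out, while that of RPSA was 0.56 ± 0.13 (adjusted p = 0.026). Ribosomal protein genes and EEF1A1 have many near-identical processed pseudogenes, so reads matching several copies may have been lost or misplaced, and their levels are uncertain.

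The other TOP mRNAs on the list gave a larger share of calls. Of 21 tested, 19 had a positive change (median 0.30), 3 were called higher, beside 1.05% of all genes, and none lower. Without the footprint libraries numbered 4, 10 were called higher, beside 3.35% of all genes, and none lower. At an unadjusted p under 0.05, 11 were higher and 0 lower, beside 1360 of all 11944 genes in either direction. DESeq2 called 9 higher and 0 lower, beside 201 and 203 of all genes. The replicate block called 10 higher, beside 490 of all genes. EEF1B2, a subunit of the exchange factor that recharges elongation factor 1A (chromosome 2, 206159609 to 206162928), had 135, 139.9, 157, 115 and 116 CPM of footprints with LPS, against 64.1, 64.0, 72.7, 47.0 and 61.2 CPM with vehicle. Its mRNA level was 73.4, 72.6, 74.5 and 66.8 CPM with LPS, against 56.0, 59.5, 51.4 and 51.6 CPM with vehicle. Both assays separated the groups, and efficiency rose by 0.71 ± 0.15 (edgeR adjusted p = 0.012). The other called members, named after their values were seen, were EEF1G, of the same complex (0.70 ± 0.12, adjusted p = 0.0013), and PABPC1, the cytoplasmic poly(A)-binding protein (0.44 ± 0.11, adjusted p = 0.042).

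The elongation factors themselves had similar values that missed the threshold in all libraries. EEF2, which moves the ribosome along the mRNA, gave 7171, 6345, 6170.2, 5874 and 6775 CPM of footprints with LPS, against 3643, 3355, 3270.4, 3588 and 3021 CPM with vehicle, with no overlap. In RNA-seq it gave 3062, 2973, 3165 and 2869 CPM with LPS, against 2315, 1850.1, 2209 and 2028 CPM with vehicle. The efficiency change was 0.42 ± 0.12 (edgeR adjusted p = 0.091), and 0.49 ± 0.10 without the libraries numbered 4 (adjusted p = 0.0027), while with the replicate block the adjusted p was 0.0047. EEF1A1, which delivers tRNAs, changed by 0.60 ± 0.17 (adjusted p = 0.070, 0.012 without the libraries numbered 4 and 0.0051 with the block), and RPLP0, of the ribosomal stalk, by 0.25 ± 0.12 (adjusted p = 0.40, and 0.20 without them).

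The tract was common in both TOP lists and about as rare among the called genes as among all genes. At the annotated start a C followed by at least 4 pyrimidines (C or T, transcribed strand only) stood in 546 of the 9720 tested genes with a RefSeq start (5.62%), in 40 of 57 ribosomal protein genes (70.2%) and in 11 of 14 other TOP genes (78.6%). Among genes on neither list, the 495 with the tract had a median efficiency change of 0.03 and the 9154 without it one of 0.01. Of the called genes with a start, 7 of 102 with higher efficiency (6.86%) and 2 of 69 with lower efficiency (2.90%) had it. Within the ribosomal protein list the median was 0.29 for the 40 genes with the tract and 0.40 for the 17 without it at the annotated start. A match describes the annotated sequence and is not evidence of a start in these cells.

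Interferon response genes had the lowest median of the 27 lists, and its size rested on the libraries numbered 4. Of 56 tested, 8 were called lower, beside 0.687% of all genes called lower, none was called higher, and 54 were negative (median -0.95). At an unadjusted p under 0.05, 32 were lower and 0 higher, beside 1360 of all 11944 genes in either direction. DESeq2 called 16 lower and 0 higher, beside 203 and 201 of all genes. With the replicate block 18 were called lower, beside 407 of all genes. With the 18 LPS and vehicle libraries only 3 were, beside 39 of all genes. Without the footprint libraries numbered 4 the median was -0.38 and 46 were negative. In that fit 15 were called lower and 1 higher, beside 2.12% and 3.35% of all genes. Leaving out the vehicle footprint library numbered 4 alone gave a median of -0.46 with 5 called lower, beside 99 of all genes. Leaving out any other single library gave a median between -1.09 and -0.89. Besides the 6 described, the called genes were PARP14 (-1.08 ± 0.28) and ADAR (-0.97 ± 0.21), an ADP-ribosyltransferase and an RNA-editing enzyme named after their values were seen.

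Members of this list parted without those libraries. IFIT1, which binds viral RNA, changed by -2.10 ± 0.85 in all libraries (edgeR adjusted p = 0.29) and by 0.01 ± 0.22 without those numbered 4. Its footprints were at 280.1, 295, 320.2, 187 and 256 CPM with LPS, against 2.19, 3.10, 2.89, 47.1 and 3.04 CPM with vehicle. MX1, a GTPase that blocks viruses, changed by -2.33 ± 0.76 in all libraries (adjusted p = 0.14) and by -0.54 ± 0.19 without those numbered 4 (adjusted p = 0.10), with footprints at 439, 384, 371, 330.4 and 335 CPM with LPS, against 16.7, 13.9, 15.0, 201 and 17.5 CPM with vehicle. For both genes the single high vehicle value was library 4. ISG15, the ubiquitin-like modifier, changed by -1.41 ± 0.50 and by -0.49 ± 0.24 without those libraries, and EIF2AK2, the kinase PKR, by -0.99 ± 0.28 and -0.63 ± 0.21. Neither ISG15 nor EIF2AK2 passed the test in either fit (edgeR adjusted p from 0.069 to 0.29), and with the replicate block EIF2AK2 did (adjusted p = 0.015).

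The 15 genes called lower without the libraries numbered 4 included all 8 of the first set. DHX58, a regulator of RNA sensing known as LGP2, was the member called higher (0.90, adjusted p = 2.05e-05, beside 0.53 ± 0.30 and 0.56 in all libraries). Its mRNA rose by 2.47 ± 0.08 and its footprints by 2.95 ± 0.26. Of the 15 genes called lower, all 15 had a positive mRNA change and 14 a positive footprint change. The exception was RNF213, a large ubiquitin ligase, with an mRNA change of 0.85 and a footprint change of -0.23.

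**Figure D4:**
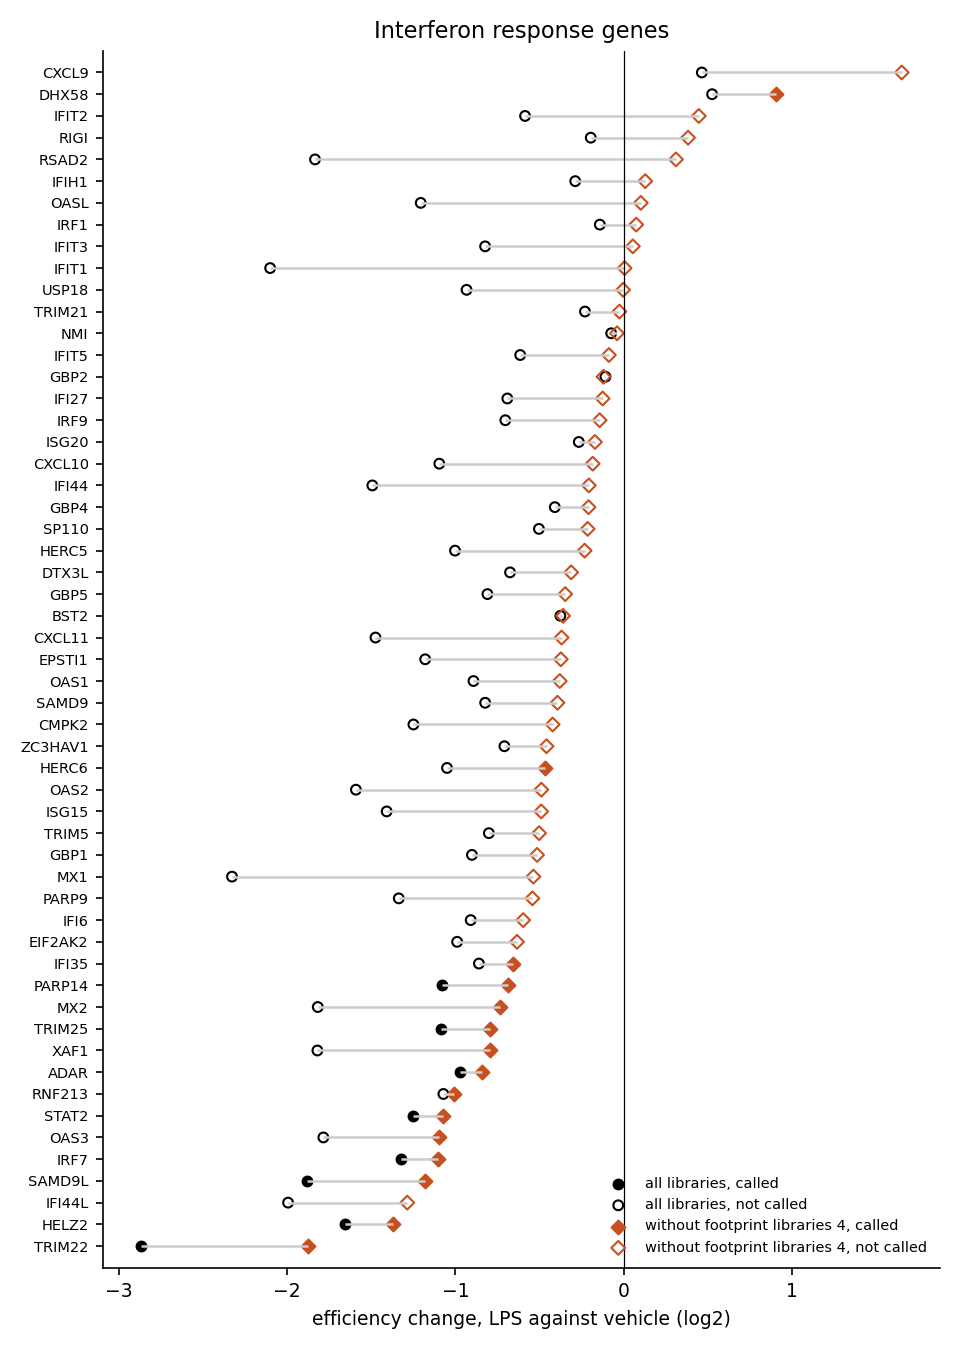
Efficiency change (log2, LPS against vehicle) of 55 of the 56 interferon response genes in all libraries (black) and without the 3 footprint libraries numbered 4 (orange), filled where the gene was called. Most genes move toward 0, IFIT1 from -2.10 to 0.01, while HELZ2, STAT2 and TRIM22 stay below -1.

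Regulators of NF-kB held 6 of the called rises among 38 tested (beside 1.05% of all genes) and no fall, with a list median of 0.17 beside 0.02 for all genes. The median was 0.09 without the footprint libraries numbered 4, 0.10 without LPS footprint library 4 alone and 0.02 with limma voom and library weights. With the replicate block 9 were called higher and 1 lower, beside 490 and 407 of all genes. With the 18 LPS and vehicle libraries only 3 were called higher, beside 95 of all genes. NFKBIZ, the atypical inhibitor that acts in the nucleus as a coactivator (ENSG00000144802, chromosome 3, 101827990 to 101861022), had 247, 249, 263, 351 and 308 CPM of footprints with LPS, against 19.4, 19.9, 20.0, 17.6 and 13.8 CPM with vehicle. The mRNA level was 159, 152, 194 and 215 CPM with LPS, against 26.2, 35.4, 31.4 and 22.9 CPM with vehicle. Both groups were far apart in both assays, and efficiency rose by 1.33 ± 0.19 (edgeR adjusted p = 0.00024), or 2.52-fold, on top of the mRNA rise of 2.67 ± 0.14.

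TNFAIP3, the ubiquitin-editing inhibitor A20, rose by 0.69 ± 0.18 in efficiency (edgeR adjusted p = 0.045), a call lost when any 1 of 12 libraries was left out. The other 4, named after their values were seen, were REL, an NF-kB subunit (0.94 ± 0.22), MAP3K8, the kinase TPL2 (0.69 ± 0.15), ZC3H12A, the endonuclease Regnase-1 that destroys inflammatory mRNAs (0.66 ± 0.14), and CFLAR, an inhibitor of caspase-8 (0.56 ± 0.13). All 6 kept a positive sign and a call without the footprint libraries numbered 4. NFKBIA, the classical inhibitor, did not join them, with 0.10 ± 0.16 (adjusted p = 0.91), although its mRNA and footprints rose by 2.69 and 2.75. Its efficiency change and that of NFKBIZ were not tested against each other.

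Efficiency changes of cytokines and chemokines had wide errors. Of 42 tested none was called by edgeR. At an unadjusted p under 0.05, 3 were higher and 2 lower, beside 1360 of all 11944 genes in either direction. DESeq2 called 0 higher and 1 lower, beside 201 and 203 of all genes. Without the footprint libraries numbered 4 edgeR called 3 higher and 1 lower, beside 401 and 254 of all genes. The replicate block called 5 higher and 1 lower, beside 490 and 407 of all genes. TNF, the early inflammatory cytokine, had 1790.3, 1922, 1847, 11120.1 and 1684 CPM of footprints with LPS, against 56.5, 56.1, 48.6, 106 and 30.9 CPM with vehicle. The LPS library numbered 4 stood far above the others. The efficiency change of TNF was 1.49 ± 0.78 (edgeR adjusted p = 0.50) and 0.80 ± 0.22 without the libraries numbered 4 (adjusted p = 0.031). With the replicate block the edgeR adjusted p was 0.016. With library weights TNF did not pass (0.61 ± 0.30, limma voom adjusted p = 0.23).

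IL1B was carried forward from its mRNA, with 40601.7, 42051.9, 42986, 70772 and 33593 CPM of footprints with LPS, against 2109, 2219, 2069, 6515 and 1473 CPM with vehicle. Its efficiency change was -0.22 ± 0.48 (edgeR adjusted p = 0.95), and 0.14 ± 0.15 without the libraries numbered 4. IL6 changed by 0.53 ± 0.37, CXCL8 by 0.01 ± 0.66, CXCL10 by -1.10 ± 0.60 and PTGS2, the inducible cyclooxygenase, by 1.09 ± 0.60, and ACOD1, which makes itaconate, had a value of -0.05. None of these 5 passed (edgeR adjusted p from 0.53 to 0.999). CXCL10 was at -0.18 without the libraries numbered 4 and at -0.35 without vehicle footprint library 4 alone, and PTGS2 was at 0.84 and, without LPS footprint library 4 alone, at 0.58. With the replicate block PTGS2 passed (edgeR adjusted p = 0.026). It did not pass without the libraries numbered 4 (edgeR adjusted p = 0.11) or with library weights (limma voom adjusted p = 0.29). The members called without the libraries numbered 4, named after their values were seen, were TNF, IL23A (1.62) and CCL20 (0.43) higher and EBI3 (-0.56) lower.

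In the remaining lists single genes stood out. Among 31 factors of AU-rich mRNA decay 2 were called higher (beside 1.05% of all genes) and none lower, ZC3H12A again and PAN2, a catalytic subunit of a poly(A)-shortening nuclease. PAN2 kept 14.3, 14.9, 16.7, 12.8 and 15.8 CPM of footprints with LPS, against 15.9, 12.0, 16.6, 11.6 and 15.3 CPM with vehicle, while its mRNA fell to 50.8, 53.4, 45.4 and 52.1 CPM with LPS, against 96.0, 120.5, 88.0 and 94.4 CPM with vehicle. Footprints overlapped and mRNA did not, and efficiency rose by 1.04 ± 0.16 (edgeR adjusted p = 0.00041). Without the libraries numbered 4, and likewise with the block, 4 members were called higher, beside 401 and 490 of all genes. DUSP16, a phosphatase of the kinases JNK and p38, was the only called gene of 34 immediate early genes and MAP kinase phosphatases. Over all genes 1.05% were called higher. The efficiency of DUSP16 rose by 1.78 ± 0.33 (edgeR adjusted p = 0.0034). Its footprints were few, 3.29 to 5.67 CPM with LPS, against 0.141 to 0.337 CPM with vehicle.

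Among 18 selenoproteins 2 were called lower (beside 0.687% of all genes) and none higher. GPX3, the secreted glutathione peroxidase, had 0.802, 0.527, 0.581, 0.672 and 0.229 CPM of footprints with LPS, against 0.0841, 0.0469, 0.263, 0.326 and 0.148 CPM with vehicle, and 8.88, 6.99, 9.53 and 8.02 CPM of mRNA with LPS, against 0.357, 0.606, 0.653 and 0.492 CPM with vehicle. The vehicle footprint levels are a few counts per library, and the efficiency change of -2.21 ± 0.49 lost its call without vehicle footprint library 3. SELENOT, of the endoplasmic reticulum, named after its values were seen, changed by -0.52 ± 0.12 (edgeR adjusted p = 0.022).

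In all libraries no member was called in 19 of the 27 lists, which hold 600 tested entries and include the cytokines. At an unadjusted p under 0.05 edgeR found 26 higher and 16 lower in them, beside 1360 of all 11944 genes in either direction. DESeq2 called 3 higher and 6 lower, beside 201 and 203 of all genes. The limma voom test with library weights called 18 and 13, beside 500 and 465. These lists cover initiation factors, upstream open reading frame and ATF4 genes, tRNA synthetases, iron-regulated mRNAs, ribosome biogenesis, mitochondrial ribosomes, the respiratory chain, histones, the cell cycle, the proteasome, chaperones, lysosomes, cholesterol synthesis and both lists of cell type markers. Without the footprint libraries numbered 4 some of them held calls, beside 3.35% of all genes higher and 2.12% lower. Monocyte and macrophage markers had 3 higher, lysosomes 2 higher and 1 lower, and ribosome biogenesis and endoplasmic reticulum chaperones 2 higher each. Apart from the cytokines, the other lists had at most 1 call in each direction. ATF4, the stress transcription factor controlled by upstream reading frames, had 9.62, 8.78, 9.71, 10.3 and 13.1 CPM of footprints with LPS, against 7.36, 7.13, 7.49, 8.06 and 7.53 CPM with vehicle. Its mRNA level was 309, 372, 284 and 289 CPM with LPS, against 252, 273, 171 and 188 CPM with vehicle. Both rose by about the same amount, with an efficiency change of -0.04 ± 0.18 (edgeR adjusted p = 0.98). The ferritin genes FTH1 and FTL, classical targets of iron-dependent translational control, changed by 0.47 ± 0.33 and -0.11 ± 0.37 and did not pass (edgeR adjusted p = 0.68 and 0.97). With the replicate block FTH1 did (edgeR adjusted p = 0.039). FTH1 did not pass without the libraries numbered 4 (edgeR adjusted p = 0.15) or with library weights (limma voom adjusted p = 0.14). Both ferritin genes have near-identical copies in the genome, so their footprint counts are uncertain.

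**Figure D5:**
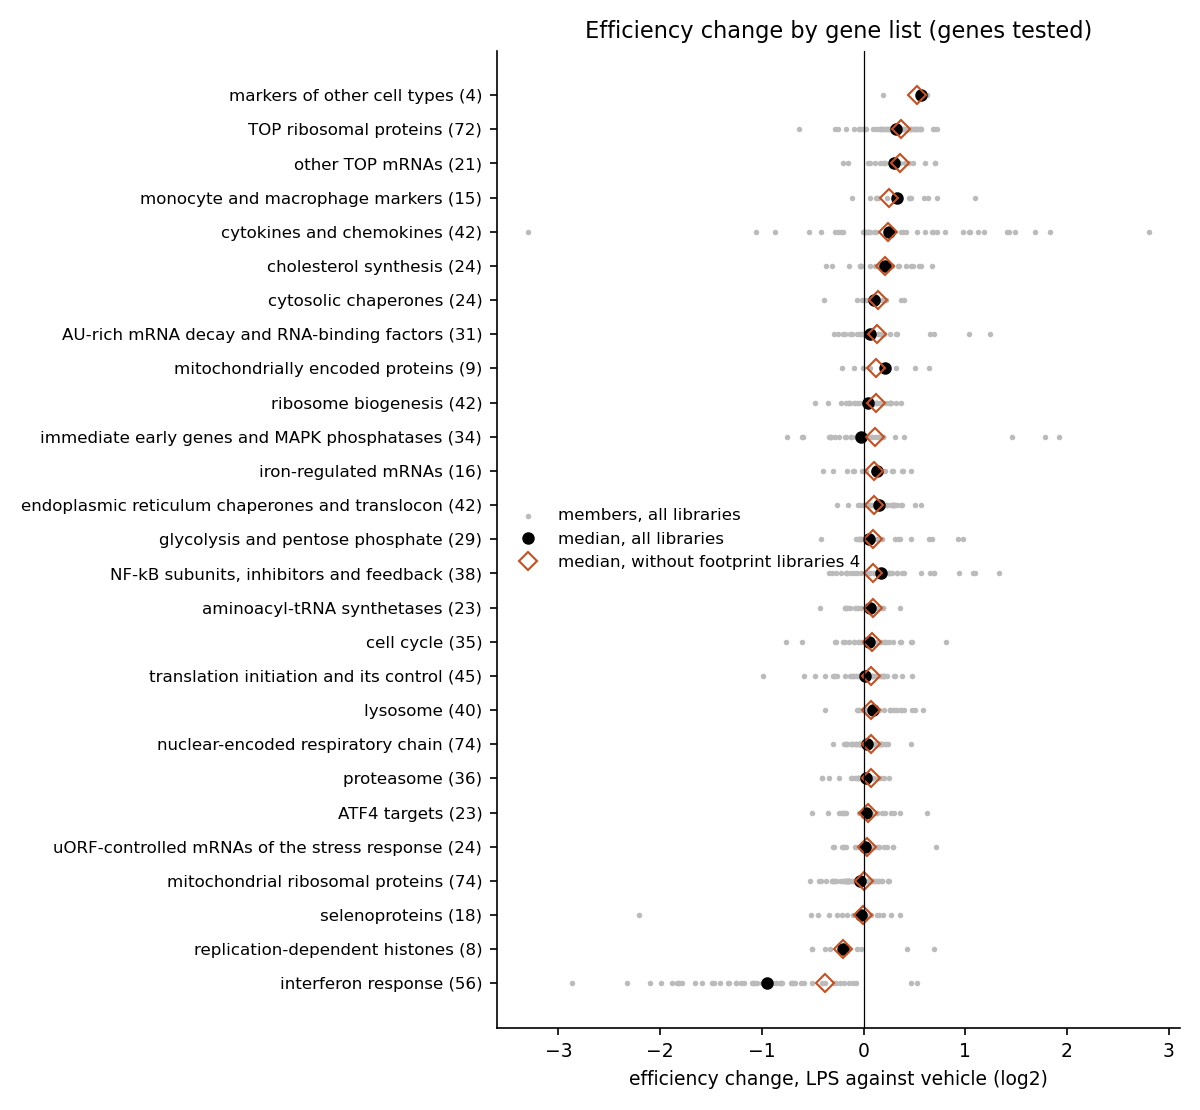
Efficiency change (log2, LPS against vehicle) by gene list, with the number of genes tested in brackets. Grey points are members and black points list medians in all libraries, and open diamonds are medians without the 3 footprint libraries numbered 4. The ribosomal protein list moves to 0.37 and the interferon list to -0.38 without those libraries.

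The same genes were measured in cells given LPS with dexamethasone, against the same vehicle libraries. There the 10 largest rises had efficiency changes of 1.21 to 2.48, beside 1.38 to 3.37 with LPS alone, and the 10 largest falls changes of -2.82 to -0.73, beside -2.87 to -1.09. All 20 had the same sign in both comparisons, which share the vehicle libraries and so are not independent. TTN had the widest gap, 1.39 ± 0.54 with LPS and dexamethasone, beside 3.37 ± 0.55 with LPS alone, and the direct difference of -1.98 ± 0.53 did not pass (edgeR adjusted p = 0.34).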

How the data were processed

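The authors deposited raw counts per Ensembl gene for 15 footprint and 12 RNA libraries of THP-1 cells. The submitters' processing notes name Bowtie2 2.4.5, STAR 2.7.10a, featureCounts 2.0.1 and DESeq2 1.26.0 with GRCh38. Which part of a gene was counted, on which strand, and how multi-mapping reads were handled is not given in the sources used here, so close paralogs and overlapping genes are uncertain. Of 20453 genes, 20407 have a symbol.

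Counts were analysed with edgeR 4.0.16 in R 4.3.3. Genes passing filterByExpr in both assays (minimum count 10, minimum total 15) entered 1 quasi-likelihood fit over 27 libraries in 6 groups, TMM-scaled. Efficiency is the LPS minus vehicle change in footprints less that in RNA, and every adjusted p is Benjamini-Hochberg over all genes. RNA and footprints were also fitted alone. CPM values were computed here from the deposited counts with joint TMM library sizes. Log2 changes carry SE. In the edgeR fits it was computed as the absolute log2 change divided by the square root of the F statistic. This approximation can fail where the change is near 0. For ACOD1 it gave 0.02 ± 3.46 without LPS footprint library 1 and 0.004 ± 0.087 without LPS footprint library 3. The fits were tested on simulated counts with known efficiency changes. Those counts had the same spread for every gene, no mRNA change, no outlying library and no replicate pairs. They therefore do not show how the fits handle these features of the real libraries. DESeq2 1.42.0 and limma 3.58.1 served as alternatives. Depth per library was 15.4 to 30.7 M counts in the groups compared.

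Named genes are the 10 largest called rises and falls with at least 5 CPM in both assays and the same sign without the footprint libraries numbered 4, the largest called members of each list, the 3 largest of each class in each direction, and a panel of 20. The values of 1 interferon response gene are not reported here, although it is in the list's counts. Members and lists were chosen with earlier results of these data known. Coordinates and starts are RefSeq GRCh38.p14.

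Same-numbered footprint libraries correlated over genes above 0.1 in all 15 pairs after group means were removed (lowest 0.196), and without number 4 in 3 of 12. Other-numbered pairs did so in 34 of 60. Same-numbered RNA pairs did in 7 of 12 and other-numbered RNA pairs in 13 of 36, with median correlations of 0.29 and -0.06. Without number 4 these were 6 of 9 and 6 of 18, with medians of 0.34 and -0.24. Pairs across assays did in 1 of 12. Equal numbers may thus be paired within each assay, in footprints mainly through number 4, and pairing across assays was not seen. No 2 libraries held identical counts.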

Additional observations from a re-analysis of the deposited data

Results flagged for a closer look

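In 15 of 136 groups of the named, called genes 1 library lay beyond Dixon's criterion for its group, which chance alone meets in about 1 group of 20. All 15 were footprint groups, and 12 of the libraries were numbered 4. In vehicle footprint library 4 the level was high for BAIAP2L1 (1.14 CPM), PLCB2 (194 CPM), TRIM22 (27.2 CPM), SAMD9L (64.6 CPM), HELZ2 (264 CPM), IRF7 (106 CPM), STAT2 (141 CPM), TRIM25 (94.4 CPM), ZNF335 (43.5 CPM) and PFKFB4 (138 CPM). In LPS footprint library 4 it was high for TIAM2 (42.3 CPM) and PLCB2 (172 CPM). The other 3 values were those of TTN and TREML1 in vehicle footprint library 2 (18.4 and 9.76 CPM, both high) and SAMD9L in LPS footprint library 5 (57.4 CPM, low). No cause was tested.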

How the results depend on the processing

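The count of genes called higher (126) moved to 201 with DESeq2, 500 with limma voom and library weights, 229 with separate spreads of the assays, 401 without the 3 footprint libraries numbered 4 and 490 with the replicate block within each assay. The count called lower (82) moved to 203, 465, 298, 254 and 407 under these settings, to 54 at a minimum count of 50 and to 39 with the 18 vehicle and LPS libraries only. With the replicate block shared by the assays it was 172 higher and 117 lower. Leaving out single libraries gave 84 to 184 higher and 51 to 99 lower. The lower count changed by over 1.5 times without LPS footprint library 3 (54), vehicle RNA library 4 (53), LPS RNA library 1 (51) and LPS RNA library 2 (52). The causes were not tested. Without single libraries, ribosomal protein genes called higher (2 in all libraries) ranged from 0 to 8, with 8 without vehicle RNA library 3, other TOP genes (3) from 2 to 7, with 7 without vehicle footprint library 4, interferon genes called lower (8) from 5 to 8, and NF-kB regulators called higher (6) from 4 to 7. In the 18 vehicle and LPS libraries only, these counts were 0, 2, 3 and 3, and no selenoprotein or glycolysis gene was called. Other scalings moved the median of all genes by under 0.1. Of the 34 named, called genes, all kept their call without the libraries numbered 4, with both blocks, DESeq2, voom and separate spreads, and 25 of 33 kept it in the 18 libraries, SAMD9L, IRF7, TRIM14, TRIM25, RPS7, PFKFB3, CCM2 and TNFAIP3 losing it. Beyond the genes for which the report gives its value, the replicate block within each assay changed no call of a named gene.

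Among the named genes, signs turned for uncalled ones only. Without the libraries numbered 4 IL1B was 0.14, ACOD1 0.30, IFIT1 0.0058 and ATF4 0.0036. With voom NFKBIA was -0.089, ACOD1 0.40 and IFIT1 0.013. CXCL8 was -0.012 with no filter on low counts and -0.014 with separate spreads. Leaving out single libraries gave ranges of -0.41 to 0.34 for IL1B, -0.49 to 0.71 for CXCL8, -0.36 to 0.31 for ACOD1, -0.16 to 0.065 for ATF4 and -0.32 to 0.14 for FTL.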
